A study of Caenorhabditis elegans with 18 samples.

Results

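The 9 RNAs described here, out of 26709 genes in the count table, encode the pairing centre proteins of *C. elegans* and the machinery that moves chromosomes in early meiosis: *him-8*, *zim-1*, *zim-2*, *zim-3*, *chk-2*, *plk-2*, *sun-1*, *zyg-12* and *pch-2*. They were chosen by function, with earlier results of these data known, and all 9 had rows in the table. The study used iCLIP, in which RNA is cross-linked to a protein in living worms, recovered with that protein and sequenced, to record the RNAs held by FBF-1 and FBF-2. These 2 nearly identical PUF proteins bind 3′UTRs and act in germline stem cells and the early meiotic germline. The question was how binding depends on whether the germline makes sperm or oocytes.

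There were 6 groups of 3 libraries, 18 in all, from early adult XX animals with hermaphrodite somatic tissues grown at 25°. FBF-1 was recovered from spermatogenic animals with *fbf-1(ok91)*, the single-copy transgene *qSi232[3xflag::fbf-1]* and *fem-3(q22 ts,gf)*. FBF-2 was recovered from spermatogenic animals with *fbf-2(q738)*, *qSi75[3xflag::fbf-2]* and the same *fem-3* allele. The oogenic FBF-1 and FBF-2 animals carried the same deletions and transgenes without the *fem-3* allele. Controls of each gender were made without the FLAG antibody, and their labels give the gender and not the transgene. Every tagged strain therefore lacked 1 endogenous FBF gene, and each protein came from its own strain, so that protein and strain cannot be told apart. Nor can germline gender and the *fem-3* allele, gender and sequencing lane or, within a gender, antibody and lane. Spermatogenic FBF libraries ran in lane 1, oogenic FBF libraries in lane 2, spermatogenic controls in lane 3 and oogenic controls in lane 1.

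Libraries held 18749 to 1833483 counts on genes. The smallest, FBF-1 oogenic replicate 1, stands apart: 1 count is worth 53.3 RPM there (counts scaled to a library total of 1000000), and it had 13 counts on the 9 RNAs together. Before FBF was compared with control or between genders, FBF-1 and FBF-2 counts were added up to give 3 combined FBF replicates of each gender. The oogenic ones joined 18749, 726238 and 1833483 FBF-1 counts to 441192, 227790 and 510852 FBF-2 counts. The spermatogenic ones joined 525318, 986344 and 1209193 FBF-1 counts to 673361, 1133534 and 884795 FBF-2 counts. The protein mix thus differed between replicates and genders, and its part in the combined values was not tested. A list of 14 sperm genes summed to 506 to 915 RPM in spermatogenic FBF libraries, against 0 to 48.9 RPM in oogenic FBF libraries, and a list of 13 oocyte genes to 3108 to 4043 RPM, against 5540 to 12062 RPM. The gender labels thus held in all 12 FBF libraries, with oocyte transcripts still counted in spermatogenic ones. Genes of body-wall muscle (8 listed, 5707 to 8829 RPM) and intestine (7 listed, 4534 to 8932 RPM) were counted in every FBF library and were higher in the controls (9912 to 12894 and 10523 to 14556 RPM).

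In *C. elegans* meiosis each chromosome carries a pairing centre near one end, a region rich in short repeats that a zinc finger protein of the HIM-8 and ZIM family binds. The kinase CHK-2 phosphorylates these proteins at meiotic entry, and the polo-like kinase PLK-2 is then recruited to the pairing centres. There the inner nuclear membrane protein SUN-1 and the outer membrane KASH protein ZYG-12 form a bridge through the nuclear envelope to dynein and microtubules, and the chromosome ends move until homologs meet. PCH-2, an AAA+ ATPase, remodels HORMA domain proteins of the chromosome axis and slows the steps that follow.

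The 4 pairing centre genes lie side by side on the + strand of chromosome IV, in 16889 bases of the WBcel235 assembly: *zim-1* (WBGene00011597) at IV:10547086-10555513, *zim-2* (WBGene00011600) at IV:10555247-10558225, *zim-3* (WBGene00011601) at IV:10558715-10561429 and *him-8* (WBGene00001867) at IV:10561905-10563974. Exons of *zim-1* and *zim-2* share 223 bases on the same strand, and reads that fall there cannot be given to either. The kinase gene *chk-2* (WBGene00000499) lies on the − strand at V:19908086-19916023 and *plk-2* (WBGene00004043) on the − strand at I:2755540-2758204. The bridge genes are *sun-1* (WBGene00006311) on the − strand at V:13191700-13193538 and *zyg-12* (WBGene00006997) on the + strand at II:4949900-4953492. Finally *pch-2* (WBGene00008641) lies on the + strand at II:8158349-8159925, where 61 exonic bases overlap *emb-27* on the other strand. All 9 are protein-coding, and the counts are of reads on their exons.

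The first comparison asks which of these RNAs came down with FBF more than without the antibody. In spermatogenic germlines 6 of the 9 were called higher with FBF than in the control, that is, at an adjusted p under 0.01 in edgeR's quasi-likelihood test and over 2-fold, where 29.2% of all tested genes were. In oogenic germlines the same 6 were called, where 29.6% of tested genes were. They were *zim-1*, *zim-2*, *zim-3*, *chk-2*, *sun-1* and *zyg-12*. The other 3, *him-8*, *plk-2* and *pch-2*, were called in neither gender. No member was called lower, where 5.78% and 1.7% of tested genes were in spermatogenic and oogenic germlines. These shares depend on the scaling. Under TMM scaling 21.7% of tested genes were called higher and 9.72% lower in spermatogenic germlines, and 15.4% and 12.7% in oogenic ones. With DESeq2 they were 18.4% and 10.7%, and 12.3% and 12.5%.

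Among the pairing centre RNAs, *zim-2*, whose protein binds the pairing centre of chromosome V, had the largest log2 fold change over control in both genders. Its combined FBF replicates held 242, 175 and 165 RPM in spermatogenic germlines, against 0, 16.8 and 6.87 RPM in the controls. In oogenic germlines they held 82.6, 95.4 and 131 RPM, against 0, 14.1 and 0 RPM. The lowest FBF value was thus above the highest control value in each gender. The log2 fold change was 4.87 (SE 0.54, adjusted p = 4.42e-18) in spermatogenic and 3.89 (SE 0.58, adjusted p = 2.76e-06) in oogenic germlines. Since the spermatogenic controls held 2 *zim-2* counts in all, the pooled ratio there was 29.3 with a 95% counting interval of 8.08 to 242.

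The transcripts of *zim-1*, for chromosomes II and III, and *zim-3*, for chromosomes I and IV, came next to it. For *zim-1* the FBF replicates held 125, 108 and 117 RPM in spermatogenic germlines, against 0, 16.8 and 6.87 RPM in the controls, and 47.8, 93.3 and 97.7 RPM in oogenic germlines, against 21.2, 14.1 and 7.19 RPM. The log2 fold changes were 4.16 (SE 0.61, adjusted p = 1.05e-10) and 2.53 (SE 0.49, adjusted p = 0.000128). For *zim-3* they held 101, 104 and 106 RPM in spermatogenic germlines, against 0, 16.8 and 13.7 RPM, and 54.4, 74.4 and 80.2 RPM in oogenic germlines, against 21.2, 10.6 and 7.19 RPM. Its log2 fold changes were 3.43 (SE 0.57, adjusted p = 1.42e-08) and 2.50 (SE 0.50, adjusted p = 0.000152). No FBF value of either RNA overlapped a control value. The spermatogenic controls held only 2 *zim-1* and 3 *zim-3* counts, so the pooled ratios of 18.1 (95% counting interval 4.99 to 150) and 10.9 (3.71 to 53.0) are loosely bounded. The oogenic call for *zim-3* was lost with DESeq2 (1.76, adjusted p = 0.011).

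The fourth gene of the cluster stood lower. For *him-8*, whose protein binds the pairing centre of the X chromosome, FBF replicates held 41.7, 31.6 and 37.2 RPM in spermatogenic germlines, against 36.7, 16.8 and 6.87 RPM in the controls, and the groups overlapped. In oogenic germlines they held 17.4, 33.5 and 28.2 RPM, against 14.1, 7.05 and 7.19 RPM, with no overlap. The log2 fold changes of 0.92 (SE 0.60, adjusted p = 0.20) and 1.61 (SE 0.62, adjusted p = 0.034) were not called. Over 16 alternatives in each gender the values ran from 0.29 to 2.02 in spermatogenic germlines, with adjusted p up to 0.78, and from 0.51 to 1.94 in oogenic ones, with adjusted p up to 0.54. A call was made in 1 of them in each gender, with the controls of the other gender in spermatogenic (2.02, adjusted p = 0.00067) and with FBF-1 libraries alone in oogenic germlines (1.92, adjusted p = 0.0042). With the controls of the other gender the oogenic value was 0.51. Without control spermatogenic replicate 1 the spermatogenic value was 1.88, and without control spermatogenic replicate 3 it was 0.29.

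**Figure D1:**
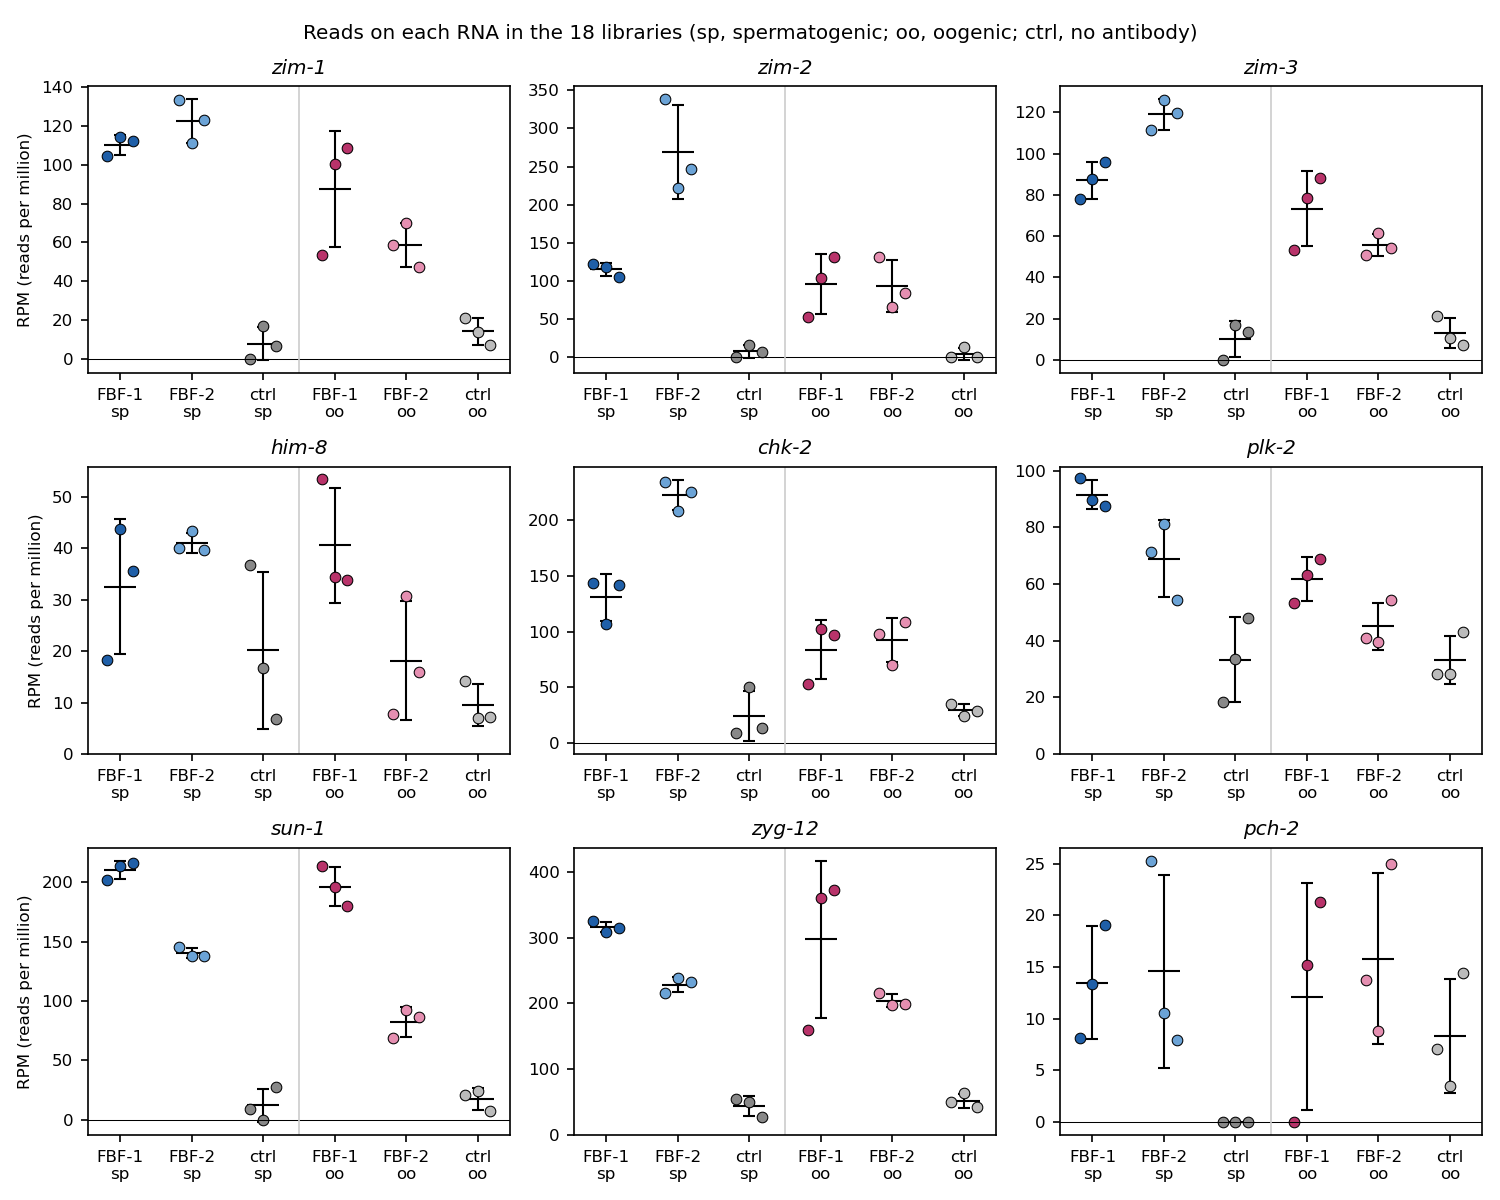
RPM of each RNA (vertical axis, linear, a separate scale per panel) in the 18 libraries, grouped as FBF-1, FBF-2 and control of spermatogenic and then oogenic germlines. Points are libraries and bars the mean ± SD of 3. The 6 spermatogenic FBF libraries of *zim-2* sit between 106 and 339 RPM, all above the spermatogenic controls (0 to 16.8 RPM). The points of FBF-1 oogenic replicate 1 rest on 0 (*pch-2*) to 4 (*sun-1*) counts and fall both ways, lowest of the FBF points for *zim-2* and highest for *him-8*.

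The 2 kinase RNAs differed. For *chk-2*, the kinase that starts pairing and double-strand break formation, FBF replicates held 179, 178 and 177 RPM in spermatogenic germlines, against 9.18, 50.3 and 13.7 RPM in the controls, and 107, 94.3 and 96.8 RPM in oogenic germlines, against 35.4, 24.7 and 28.8 RPM. Neither gender showed overlap, and the log2 fold changes were 3.21 (SE 0.42, adjusted p = 4.04e-13) and 1.78 (SE 0.38, adjusted p = 0.00036). The oogenic call for *chk-2* was lost under TMM scaling (1.05, adjusted p = 0.021), with DESeq2 (1.07, adjusted p = 0.043), with a library size that leaves out genes of rRNA, tRNA and mitochondria (1.12, adjusted p = 0.014) and without control oogenic replicate 2 (1.62, adjusted p = 0.012). For *plk-2* they held 79.3, 88.7 and 73.5 RPM in spermatogenic germlines, against 18.4, 33.5 and 48.1 RPM, and 54.4, 57.7 and 62.7 RPM in oogenic germlines, against 28.3, 28.2 and 43.1 RPM. Its groups did not overlap either, but the log2 fold changes were only 1.20 (SE 0.42, adjusted p = 0.012) and 0.87 (SE 0.40, adjusted p = 0.073). Over 17 alternatives the spermatogenic value ran from 0.69 to 1.76 with adjusted p up to 0.20, and it was called in 3 of them, with FBF-1 libraries alone (1.38, adjusted p = 0.0028), with the controls of the other gender (1.33, adjusted p = 0.00012) and with a minimum mean of 100 counts (1.20, adjusted p = 0.008). The highest, 1.76, came without control spermatogenic replicate 3. The oogenic value ran from 0.11 to 1.06 over 16 alternatives and was called in none.

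Both bridge RNAs were called in both genders. For *sun-1* FBF replicates held 175, 167 and 183 RPM in spermatogenic germlines, against 9.18, 0 and 27.5 RPM in the controls, and 91.3, 171 and 156 RPM in oogenic germlines, against 21.2, 24.7 and 7.19 RPM. The log2 fold changes were 3.45 (SE 0.44, adjusted p = 1.05e-13) and 2.87 (SE 0.43, adjusted p = 3.21e-06). The spermatogenic controls held 5 *sun-1* counts in all, which gives a pooled ratio of 11.004 with a 95% counting interval of 4.70 to 33.97, and without control spermatogenic replicate 3 the log2 fold change was 4.86. For *zyg-12* they held 256, 278 and 280 RPM in spermatogenic germlines, against 55.1, 50.3 and 27.5 RPM, and 198, 322 and 337 RPM in oogenic germlines, against 49.5, 63.4 and 43.1 RPM. Its log2 fold changes were 2.71 (SE 0.32, adjusted p = 3.23e-16) and 2.42 (SE 0.31, adjusted p = 2.51e-07). FBF and control values of both RNAs lay apart in each gender.

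The checkpoint ATPase RNA *pch-2* had few counts and was called in neither gender. Its 6 spermatogenic FBF libraries held 7 to 23 counts and the 3 spermatogenic controls 0 each. The 3 counts that a total of 0 allows over those controls, a one-sided limit, correspond to 9.55 RPM. The pooled FBF level of 13.7 RPM was 1.43-fold that floor, without allowance for counting error in the FBF libraries. The adjusted p of 0.021 (not called) is of edgeR's test against the controls themselves, not against the floor. In oogenic germlines FBF replicates held 23.9, 13.6 and 19.6 RPM, against 7.07, 3.52 and 14.4 RPM in the controls, and overlapped them (log2 fold change 1.35, SE 0.73, adjusted p = 0.12).

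**Figure D2:**
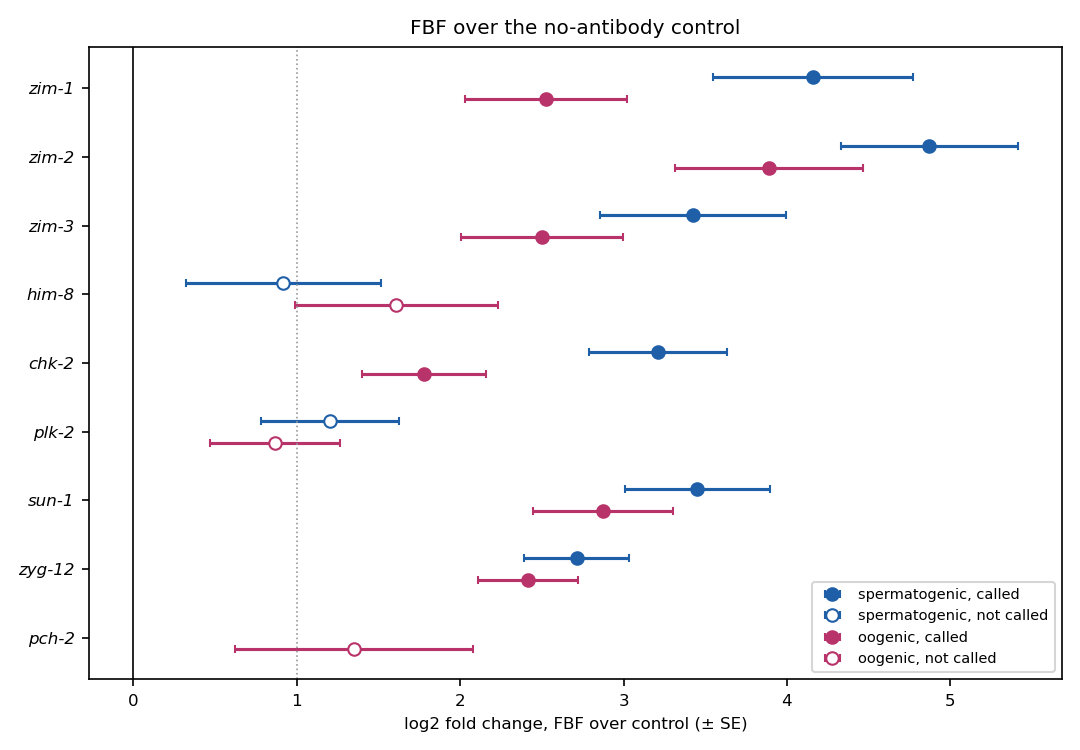
Log2 fold change of FBF over the no-antibody control (horizontal axis, ± SE) for each RNA in spermatogenic and oogenic germlines, with filled points for called values and a dotted line at 2-fold. *zim-2* lies farthest right in both genders (4.87 and 3.89), and *him-8*, *plk-2* and *pch-2* are open; spermatogenic *pch-2* is not drawn because its controls were all at 0.

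Over the 9 RNAs the median log2 fold change was 3.43 in spermatogenic germlines, or 3.21 with *pch-2* set at its bound, and 2.42 in oogenic germlines. The medians of all tested genes were 0.71 and 0.90. Under TMM scaling those medians of all genes moved to 0.36 and 0.17, and 6 members in spermatogenic and 5 in oogenic germlines were still called.

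Per kilobase of exon the order of the FBF levels was led by the bridge RNAs. Since FBF binds 3′UTRs, this scaling by whole exon length does not measure binding strength, and the order depends on it. Unscaled, the spermatogenic order began with *zyg-12* (271 RPM), *zim-2* (194 RPM), *chk-2* (178 RPM) and *sun-1* (175 RPM). The oogenic order began with *zyg-12* (286 RPM), *sun-1* (139 RPM) and *zim-2* (103 RPM). In spermatogenic germlines *sun-1* averaged 106 ± 4.65 RPM per kb and *zyg-12* 84.4 ± 4.13, followed by *zim-2* at 82.4 ± 17.7, *chk-2* at 70.3 ± 0.29 and *zim-1* at 57.7 ± 4.23 (SD, n = 3 combined replicates each). Lower came *zim-3* at 47.2 ± 1.16 RPM per kb, *plk-2* at 37.0 ± 3.51, *him-8* at 29.4 ± 4.04 and *pch-2* at 10.6 ± 3.85. The ranges of *zyg-12* and *zim-2* overlapped, as did those of *zim-2* and *chk-2*, and no other neighbours in this order did. Though not a neighbour, *zim-2* (70.1 to 102.6 RPM per kb) also overlapped *sun-1* (100.9 to 110 RPM per kb). In oogenic germlines *zyg-12* averaged 88.9 ± 23.8 RPM per kb and *sun-1* 83.96 ± 25.5, then *zim-2* 43.7 ± 10.6, *zim-1* 39.3 ± 13.6 and *chk-2* 39.2 ± 2.55. The lowest were *zim-3* at 31.7 ± 6.18 RPM per kb, *plk-2* at 26.8 ± 1.93, *him-8* at 21.02 ± 6.56 and *pch-2* at 13.8 ± 3.75. There each RNA overlapped the next, except that *chk-2* lay above *zim-3* without overlap.

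The next comparison is that of FBF binding between germline genders. None of the 9 RNAs was called in either direction by edgeR or by DESeq2 (4 had an unadjusted p under 0.05 in edgeR), where 10.2% of tested genes were called higher and 4.71% lower in spermatogenic germlines. Another 2 passed the adjusted p, as 23.2% of tested genes did, and stayed under 2-fold: *chk-2*, with a log2 fold change of 0.66 (SE 0.14, adjusted p = 0.0015), and *zim-2*, with 0.63 (SE 0.17, adjusted p = 0.0067). The combined replicates of *chk-2* held 179, 178 and 177 RPM in spermatogenic germlines, against 107, 94.3 and 96.8 RPM in oogenic ones. Those of *zim-2* held 242, 175 and 165 RPM, against 82.6, 95.4 and 131 RPM. Neither RNA overlapped between genders. In bulk worms fewer cells of a type and less RNA per cell cannot be told apart, nor can either from weaker binding. A list of 7 early meiotic germ cell genes, of which *him-3*, *htp-3* and *dsb-2* are also in the pathway list described last, was summed too. It came to 2342 to 3350 RPM in spermatogenic FBF libraries, against 1333 to 2020 RPM in oogenic FBF libraries. Without the antibody it came to 144 to 168 RPM in spermatogenic and 141 to 156 RPM in oogenic controls. Each gene of that list was called higher with FBF than in the control in both genders. In FBF libraries its sum therefore also reflects binding. Between genders the log2 fold changes of the listed genes ran from -0.23 (*spo-11*) to 0.78 (*dsb-2*). The part of cell numbers in the differences between genders was not tested.

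The other 7 did not pass, and the approximate 95% interval of each difference gives the sizes the data allow. For *sun-1* the log2 fold change was 0.07, with an interval of -0.21 to 0.34, and for *zim-1* 0.25 (-0.04 to 0.54). For *zim-3* it was 0.32 (0.06 to 0.58, adjusted p = 0.078), for *plk-2* 0.26 (-0.04 to 0.55) and for *him-8* 0.21 (-0.19 to 0.61). For *zyg-12* it was -0.32 (-0.59 to -0.06, adjusted p = 0.081) and for *pch-2* -0.58 (-1.20 to 0.03). These intervals are of the combined replicates. With FBF-2 libraries alone *him-8* came to 0.89 (SE 0.36, adjusted p = 0.057) and *zim-2* to 0.89 (SE 0.20, adjusted p = 0.0019), and with FBF-1 libraries alone they came to -0.14 and -0.07. In RPM, 5 of the 9 RNAs were higher in spermatogenic germlines without overlap, where 35.2% of tested genes were. Library-size scaling moved the median of all genes from -0.01 to 0.19 and called no member either.

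**Figure D3:**
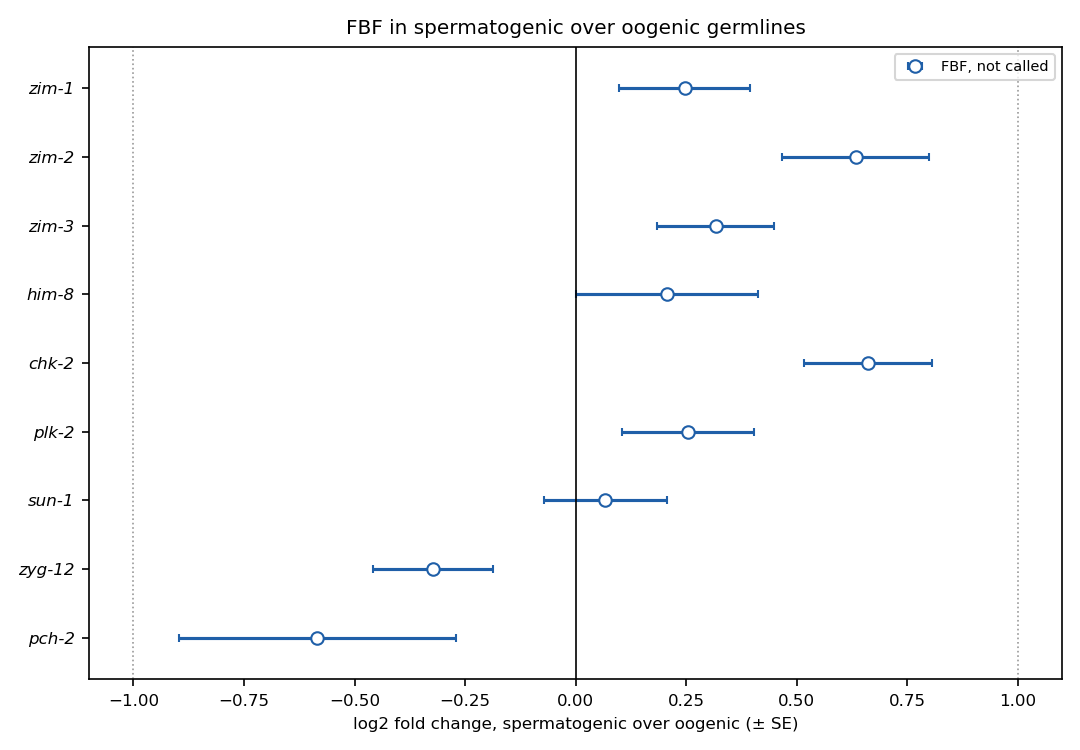
Log2 fold change of FBF in spermatogenic over oogenic germlines (horizontal axis, ± SE) for each RNA, with dotted lines at 2-fold either way. All 9 points are open, that is, not called, with *chk-2* (0.66) and *zim-2* (0.63) farthest right and *pch-2* (-0.58) farthest left.

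Without the antibody only *zyg-12* had enough counts to be compared between genders, at 44.3 ± 14.8 RPM in spermatogenic and 52.0 ± 10.4 RPM in oogenic controls (SD, n = 3 each). The groups overlapped, and the log2 fold change of -0.65 (SE 0.50, adjusted p = 0.42) was not called, where 6.28% of tested genes were called higher and 6.73% lower. The enrichment over control did not differ by gender for any of the 9 RNAs at an adjusted p under 0.01 in edgeR, where 1.06% of genes were called higher and 0.919% lower. DESeq2 called none either. The members had a median of 1.05 on the log2 scale, against 0.17 over all tested genes, and 8 of the 9 were above 0. That median includes *pch-2*, whose spermatogenic controls were all at 0. The controls held few counts on most of these RNAs, so a missing call does not mean that enrichment was equal. The one unadjusted p under 0.05 in edgeR was that of *chk-2*, whose enrichment was larger in spermatogenic germlines by 1.60 on the log2 scale (SE 0.70, adjusted p = 0.24). Its approximate 95% interval was 0.22 to 2.98, and each control library held 1 to 7 *chk-2* counts.

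FBF-1 and FBF-2 were then set against each other within a gender. In spermatogenic germlines 8 of the 9 RNAs had enough counts, *pch-2* being the exception, and 1 was called. The libraries of *zim-2* held 123, 118 and 106 RPM with FBF-1, against 339, 221 and 246 RPM with FBF-2. The highest FBF-1 value was well under the lowest FBF-2 value. The log2 fold change of FBF-1 over FBF-2 was -1.25 (SE 0.15, adjusted p = 4.89e-07), a call that 1.72% of tested genes shared and 4.0% had in the other direction. It was made under each of the 12 alternatives, whose adjusted p reached at most 2.11e-05.

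Of the rest 4 RNAs passed the adjusted p, which 22.2% of tested genes passed in all, but stayed under 2-fold, with FBF-1 lower for *chk-2* and *zim-3* and higher for both bridge RNAs. The libraries of *chk-2* held 144, 107 and 142.2 RPM with FBF-1, against 234.6, 208 and 225 RPM with FBF-2 (log2 fold change -0.77, SE 0.12, adjusted p = 7.82e-06). Those of *zim-3* held 78.1, 87.6 and 95.9 RPM, against 111, 126 and 120 RPM (-0.50, SE 0.14, adjusted p = 0.0055). Both groups were apart in each case. Those of *sun-1* held 202, 213 and 216 RPM with FBF-1, against 146, 138 and 138 RPM with FBF-2 (0.54, SE 0.12, adjusted p = 0.00048). Those of *zyg-12* held 324, 308 and 315 RPM, against 215, 238 and 232 RPM (0.42, SE 0.11, adjusted p = 0.0034). The bridge RNAs lay apart too, in the other direction. The values for *zim-1* (-0.19, SE 0.14), *him-8* (-0.46, SE 0.24) and *plk-2* (0.35, SE 0.16) did not pass.

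In oogenic germlines 7 RNAs had enough counts, without *him-8* and *pch-2*, and none was called by edgeR or by DESeq2 (3 had an unadjusted p under 0.05 in edgeR), where 3.95% of tested genes were called higher with FBF-1 and 4.12% lower. The libraries of *sun-1* held 213, 196 and 180 RPM with FBF-1, against 68.5, 92.2 and 86.1 RPM with FBF-2. All FBF-1 values lay above all FBF-2 values, also without the small library, whose 213 RPM rests on 4 counts. The log2 fold change of 0.71 (SE 0.20, adjusted p = 0.0018) passed the adjusted p, as did 21.1% of tested genes, and stayed under 2-fold. Library-size scaling, under which the median of all genes moved to 0.52 from 0.01, gave 1.22 (adjusted p = 8.38e-08) and a call. Counts on rRNA took 14.0% to 39.3% of FBF-1 and 31.2% to 36.6% of FBF-2 oogenic libraries, and the part of that difference in the RPM values was not tested.

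The spermatogenic difference of *zim-2* was not seen in oogenic germlines, where its libraries held 53.3, 105 and 131 RPM with FBF-1, against 131, 65.9 and 83.9 RPM with FBF-2. The groups overlapped, and the log2 fold change was -0.24 (SE 0.20, adjusted p = 0.38), with a sign that turned under library-size scaling (0.26), under the replicate block and without FBF-2 oogenic replicate 1. The libraries of *chk-2* held 53.3, 102 and 96.5 RPM, against 97.9, 70.2 and 109 RPM (-0.48, SE 0.21, adjusted p = 0.061), and overlapped as well. Those of *zyg-12* held 160, 361 and 371 RPM, against 215, 198 and 199 RPM (0.31, SE 0.15, adjusted p = 0.12). The small library was the one FBF-1 value of *zyg-12* under the FBF-2 values, and it rests on 3 counts. The values for *zim-1* (0.37, SE 0.23), *zim-3* (0.12, SE 0.25) and *plk-2* (0.03, SE 0.27) did not pass.

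**Figure D4:**
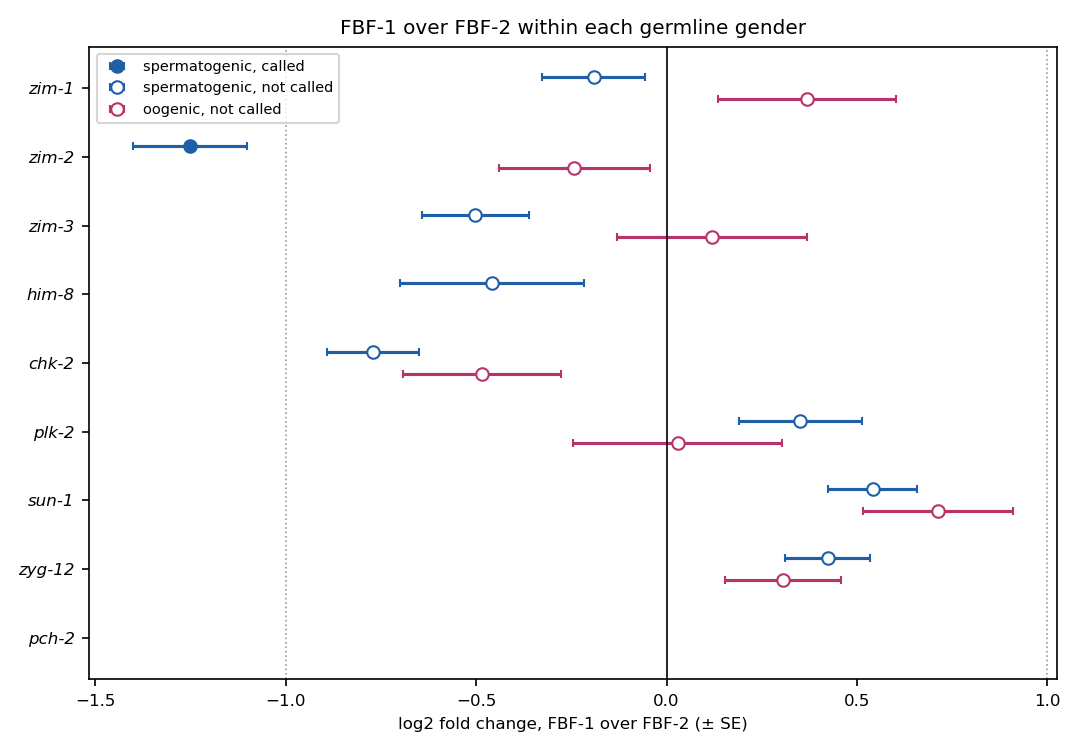
Log2 fold change of FBF-1 over FBF-2 (horizontal axis, ± SE) for each RNA in spermatogenic and oogenic germlines, with dotted lines at 2-fold either way. *zim-2* in spermatogenic germlines (-1.25) is the one filled, called point, *sun-1* and *zyg-12* lie right of 0 in both genders, and RNAs with too few counts have no point.

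The difference between these differences was tested for 8 RNAs. For *zim-2* FBF-1 over FBF-2 was lower in spermatogenic than in oogenic germlines by a log2 value of -0.99 (SE 0.25, adjusted p = 0.0036), a call that 2.28% of tested genes shared and 4.19% had in the other direction. The call was lost with DESeq2 (-0.99, adjusted p = 0.16) and without any 1 of FBF-1 spermatogenic replicate 3 (-0.87, adjusted p = 0.016), FBF-1 oogenic replicate 3 (-0.86, adjusted p = 0.068), FBF-2 oogenic replicate 2 (-0.89, adjusted p = 0.012) or FBF-2 oogenic replicate 3 (-0.86, adjusted p = 0.035). The other 7 were not called, with values of -1.07 (*him-8*, SE 0.46, adjusted p = 0.11) to 0.34 (*plk-2*, SE 0.30, adjusted p = 0.50).

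Some ratios within a library, chosen after the values above were seen and given without a test, do not depend on how libraries were scaled. The share of *zim-2* among counts on the 4 clustered pairing centre genes was 37.9%, 32.5% and 30.3% with FBF-1 in spermatogenic germlines, against 54.3%, 44.1% and 46.6% with FBF-2. The exact (Clopper-Pearson) 95% intervals, which cover counting error only, reached up to 43.5% in the first of these FBF-1 libraries and down to 40.0% in the lowest FBF-2 library. In oogenic germlines the shares were 25.0% (1 of 4 counts), 32.9% and 36.2% with FBF-1, against 52.8%, 28.8% and 41.6% with FBF-2, and overlapped. Counts on *sun-1* and *zyg-12* together per count on *zim-2* came to 4.29, 4.42 and 5.02 with FBF-1 in spermatogenic germlines, against 1.07, 1.70 and 1.5 with FBF-2. In oogenic germlines they came to 7 (on 1 *zim-2* count), 5.32 and 4.21 with FBF-1, against 2.16, 4.40 and 3.41 with FBF-2, where the ranges met.

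**Figure D5:**
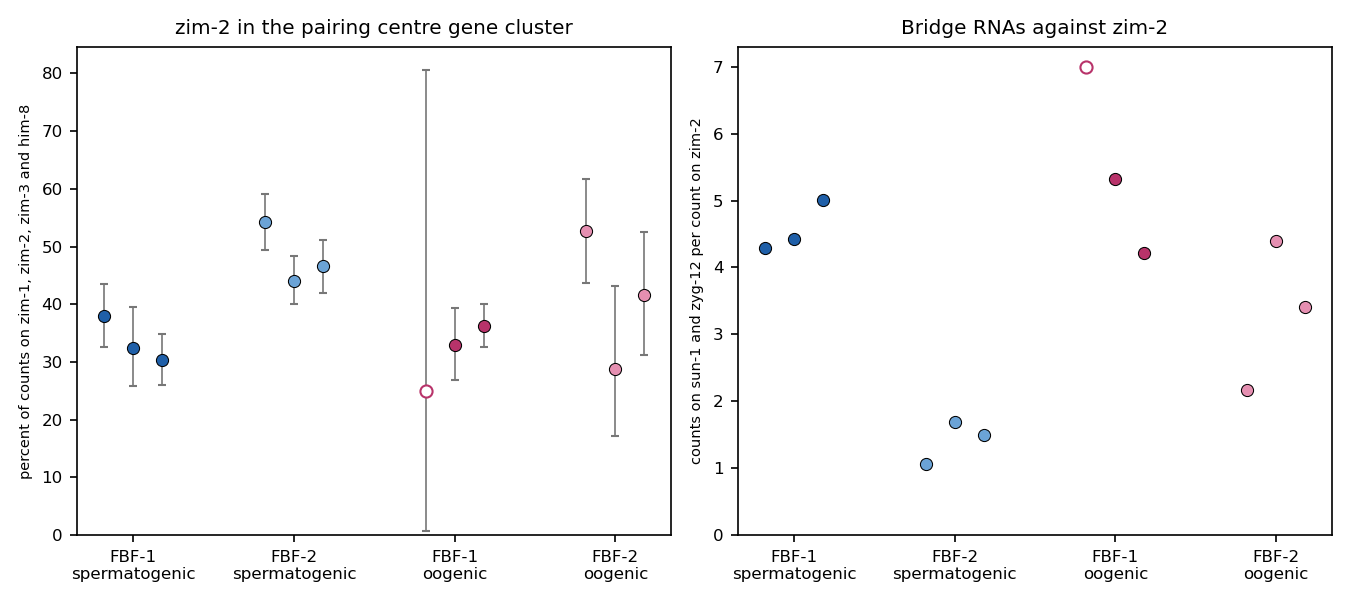
Left, *zim-2* counts as a percent of counts on *zim-1*, *zim-2*, *zim-3* and *him-8* in each FBF library, with exact 95% intervals; right, *sun-1* and *zyg-12* counts per *zim-2* count. Open points rest on 1 *zim-2* count; in spermatogenic germlines the FBF-1 libraries (4.29 to 5.02) lie apart from the FBF-2 libraries (1.07 to 1.70) on the right.

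By the pattern over all 18 libraries, measured as Pearson's r of log2(RPM + 1) among 7501 genes, *zim-1* and *zim-3* were each other's nearest gene (r = 0.99). Controls and FBF libraries differ in depth and in most enriched RNAs, and that difference enters every such r. Over the 12 FBF libraries alone the pair had r = 0.91, and 0.90 over the 11 without the small one. Over those 12 libraries *sun-1* and *zyg-12* had r = 0.52, or 0.84 over the 11, and *chk-2* and *zim-2* had 0.92, or 0.89 over the 11. The nearest genes of the other members were *Y43F4B.7* for *zim-2* (r = 0.96), *rtfo-1* for *chk-2* (0.98), *rom-4* for *plk-2* (0.94), *K11H3.4* for *sun-1* (0.99), *ntl-9* for *zyg-12* (0.98), *eif-3.G* for *him-8* (0.84) and *mrpl-2* for *pch-2* (0.96). Both *him-8* and *pch-2* had few counts, and these values describe the libraries only.

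Other genes of the pathway were listed by function, 32 in all, also with earlier results of these data known. Of these 20 (62.5%) were called higher with FBF than in the control in spermatogenic and 17 (53.1%) in oogenic animals, where 29.2% and 29.6% of tested genes were. None was called lower. They had median log2 fold changes of 2.30 and 1.52. These counts and medians are of library-size scaling, and those of the partners under other scalings are not given here. Among 11 genes listed as partners of the pairing centres and kinases, double-strand break factors included, 7 were called in each gender. The largest values were those of the same 3 genes in both. The double-strand break factor gene *dsb-1* had 4.41 (SE 0.34) in spermatogenic and 5.15 (SE 0.35) in oogenic germlines. In the same order *prom-1*, an F-box protein that acts upstream of CHK-2, had 4.97 (SE 0.33) and 4.76 (SE 0.37), and *mjl-1*, which links pairing centres to SUN-1, had 4.30 (SE 0.43) and 5.18 (SE 0.51). The oogenic controls held 3 *mjl-1* counts, for a pooled ratio of 39.1 (95% counting interval 13.3 to 190). The smallest values were those of *cmt-1* in spermatogenic germlines (0.99, SE 0.48, not called) and of *him-17* in oogenic ones (1.00, SE 0.45, not called). The 4 HORMA domain axis genes were called in both, from *htp-3* (3.86, SE 0.33, and 3.49, SE 0.37) to *him-3* (5.54, SE 0.31) in spermatogenic and *htp-2* (4.66, SE 0.28) in oogenic germlines. Established FBF targets are among them (*htp-1*, *htp-2* and *him-3*), so their count is not independent evidence. Of 8 genes of dynein and its cofactors 5 were called in each gender, and *nud-2*, a dynein cofactor, had the largest value (3.38, SE 0.29, and 3.58, SE 0.32). The heavy chain *dhc-1* was called in neither (0.48, SE 0.18, and 0.26, SE 0.21), and the light intermediate chain *dli-1* had the smallest spermatogenic value (0.29, SE 0.33). The genes called were not all the same: *lis-1* was called only in spermatogenic germlines. Only in oogenic ones was *dli-1* called (1.54, SE 0.48, adjusted p = 0.0099988 in edgeR). Oogenic FBF and control values of *dli-1*, *dnc-1* and *dnc-2* overlapped. Of 9 other nuclear envelope genes 4 (44.4%) were called in spermatogenic germlines and 1 (11.1%) in oogenic ones, above and below the shares over all tested genes. The LEM domain protein gene *lem-2* was called in both (5.13, SE 0.71, and 1.95, SE 0.39). Its spermatogenic controls held 1 count, for a pooled ratio of 36.2 with a 95% counting interval of 6.47 to 1430.4. The somatic SUN gene *unc-84* was called in neither (-0.90, SE 0.65, and -0.02, SE 0.41). The lowest spermatogenic and oogenic values were those of *unc-83*, the KASH partner of UNC-84 (-0.92, SE 0.35, and -0.79, SE 0.37, not called).

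Between genders 2 of the 32 (6.25%) were called, both lower in spermatogenic germlines, where 4.71% of tested genes were. They were *unc-84*, at 13.8 ± 4.25 RPM in spermatogenic and 42.1 ± 13.9 RPM in oogenic germlines (log2 fold change -1.93, SE 0.24, adjusted p = 3.21e-06), and the importin gene *ima-2*, at 123 ± 8.44 and 214 ± 49.9 RPM (-1.05, SE 0.13, adjusted p = 2.05e-06; SD, n = 3 combined replicates each). Without the antibody *unc-84* had 19.9 ± 20.6 RPM in spermatogenic and 46.1 ± 15.3 RPM in oogenic controls (-1.08, SE 0.60, adjusted p = 0.23), so that its mean with FBF lay under that of the controls in both genders. Of 17 partners tested between controls 2 (11.8%) were called, both lower in spermatogenic animals, where 6.73% of tested genes were. They were *ima-2*, at 26.2 ± 25.5 RPM in spermatogenic and 123 ± 25.0 RPM in oogenic controls (-2.45, SE 0.48, adjusted p = 7.17e-05), and the giant KASH protein gene *anc-1*, at 463 ± 154 and 1004 ± 58.6 RPM (-1.36, SE 0.19, adjusted p = 8.48e-08). The enrichment over control differed by gender for *anc-1* alone of the 32 (3.12%), by 1.70 on the log2 scale (SE 0.24, adjusted p = 3.07e-08), where 1.06% of tested genes were called higher; over control it had 0.81 (SE 0.16) in spermatogenic and -0.75 (SE 0.15) in oogenic germlines, not called in either. In spermatogenic germlines 3 of 30 tested partners were called between the proteins, 2 (6.67%) lower with FBF-1, where 1.72% of tested genes were, and 1 (3.33%) higher, where 4.0% were. FBF-1 was lower for *htp-3*, an axis protein, at 274 ± 8.08 RPM against 559 ± 43.2 RPM with FBF-2 (-1.07, SE 0.12, adjusted p = 1.78e-08), and for *dsb-2*, a double-strand break factor, at 96.8 ± 16.02 against 203 ± 11.7 RPM (-1.15, SE 0.14, adjusted p = 6.47e-08). It was higher for *hal-3*, a partner of HAL-2 in synapsis, at 69.6 ± 2.37 against 31.8 ± 3.71 RPM (1.09, SE 0.19, adjusted p = 4.2e-05). In oogenic germlines 2 of 31 (6.45%) were called, where 3.95% of tested genes were called higher, with FBF-1 higher for *hal-2* (1.01, SE 0.19, adjusted p = 7.82e-07) and the dynactin gene *dnc-2* (1.06, SE 0.28, adjusted p = 0.00096). The values of *dnc-2* overlapped between the proteins. The difference between the proteins differed by gender for *hal-2* alone of 31 partners (3.23%), by -0.77 on the log2 scale (SE 0.22, adjusted p = 0.0095), where 2.28% of tested genes were called lower.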

How the data were processed

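The series holds 18 iCLIP libraries, 3 in each of 6 groups. What the authors deposited is a table of raw counts, 1 row a gene. Per the study's methods, reads were split by barcode, clipped and mapped locally with STAR, multiply mapping reads and those with a score below 20 were dropped, duplicates were collapsed by barcode, and exonic reads were assigned with HTSeq. The genome build, the annotation, the software versions and the strand setting of the counting are not given in the sources used here, so genes overlapping on opposite strands are uncertain. Entries for reads on no gene (9.54% to 20.2% of a library) and ambiguous reads (0.568% to 1.93%) counted in neither library sizes nor tests.

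Names, exon lengths and coordinates came from Ensembl release 115 (WBcel235), which matched 25741 of 26709 genes. RPM scale the counts of a library to a total of 1000000 on genes. Combined FBF replicates were spermatogenic FBF-1/FBF-2 replicates 2/1, 1/2 and 3/3, and oogenic 1/3, 2/2 and 3/1. Genes averaging 20 counts or more in the FBF libraries of a comparison (5 for controls) entered edgeR 4.0.16 (with R 4.3.3 and limma 3.58.1) and its robust quasi-likelihood test with Benjamini-Hochberg adjustment over all genes tested, and called at an adjusted p under 0.01 and over 2-fold (interactions by the adjusted p alone). Enrichment and its interaction with gender used library-size scaling, the other tests TMM. rRNA, tRNA and mitochondrial genes were left out of the interaction of antibody and gender. Scripts were tested on simulated data. Other values came from scipy 1.17.1, pandas 2.3.3 and numpy 2.4.6 in Python 3.11.15, and the plots from matplotlib 3.10.9. Intervals of pooled ratios and shares cover counting error only. The labels number the replicates, which the study calls biological, and no 2 libraries of a group agreed within sampling noise.

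All 9 members were described in every comparison, partners by counts, with values for the largest and smallest enrichments of a list and for those called in another comparison, and for each member the 1 gene of highest r. The members and the gene lists were chosen with earlier results of these data known. The alternatives were DESeq2 1.42.0, other scalings, count minimums and thresholds, single-protein or separate libraries, controls of the other gender, a replicate block, and libraries left out 1 at a time.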

Additional observations from a re-analysis of the deposited data

Results flagged for a closer look

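The difference between the FBF-1 and FBF-2 libraries for *zim-2* differed between genders by the test of the difference itself. Protein cannot be told from strain here, nor gender from the *fem-3* allele or the lane. FBF-1 over FBF-2 was lower in spermatogenic than in oogenic germlines by a log2 value of -0.99 (SE 0.25, edgeR adjusted p = 0.0036), and FBF-1 was lower than FBF-2 in 3 of 3 libraries of spermatogenic germlines. Across its 15 alternatives the adjusted p ranged from 3.46e-06 to 0.16, and 10 of them kept the call. It was lost with DESeq2 and in some of the fits without 1 library. Groups of 3 libraries were too small for a test of single samples.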

How the results depend on the processing

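Of 863 values of single members under another setting, 820 kept their direction and their side of the threshold, 10 lost and 17 gained a call, and 16 turned their sign. Another 3 could not be given because the controls left were all at 0. The 6 spermatogenic enrichments were made under every alternative. In oogenic germlines 4 to 7 members were called, 4 with DESeq2, which also lost *zim-3* (1.76, adjusted p = 0.011), and 6 without the small FBF-1 library. The cause of these changes was not tested.

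Counting by the adjusted p alone called 2 members and 1738 genes between genders (0 and 1119 as reported), 5 and 1374 between the proteins in spermatogenic germlines (1 and 355) and 1 and 999 in oogenic ones (0 and 382). Without a count minimum the calls were 2819 between genders, 605 between the proteins in spermatogenic germlines and 632 between controls (408 as reported), and with a minimum mean of 100 they were 250, 108 and, in oogenic germlines, 138, since other numbers of genes were tested. FBF-2 libraries alone gave 1202 oogenic enrichments (2011 as reported) and 554 gender calls. Library-size scaling gave 1 member and 933 genes between the proteins in oogenic germlines, and 5 members and 1245 genes for protein by gender (1 and 355 as reported). DESeq2 gave 117 genes in oogenic germlines, and 0 members and 103 genes for protein by gender. With rRNA, tRNA and mitochondrial genes kept, 253 genes were called for antibody by gender (144 as reported).

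Signs turned for some values, and these were not all small in the main fit. With FBF-1 alone the gender values of *zim-2* and *him-8* were -0.0684 and -0.14, against 0.63 and 0.21 with the combined replicates. Under library-size scaling FBF-1 over FBF-2 in oogenic germlines was 0.26 for *zim-2* and 0.031 for *chk-2*, and protein by gender was -0.14 for *plk-2* and -0.35 for *zyg-12*.

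With each replicate left out in turn, 6 spermatogenic and 5 to 6 oogenic enrichments, 0 gender calls, 1 spermatogenic and 0 oogenic protein calls, 0 antibody by gender calls and 0 to 1 protein by gender calls were made among members. Over all genes the counts ran from 2263 to 2790, 1231 to 2779, 845 to 1290, 340 to 396, 283 to 397, 99 to 212 and 204 to 357 in that order, and from 323 to 412 between controls. The oogenic 1231 came without control oogenic replicate 2. Leaving out FBF oogenic replicate 1 turned *sun-1* between genders (range -0.0045 to 0.20). Leaving out FBF-2 oogenic replicate 1 turned *zim-2* (range -0.37 to 0.067), *zim-3* (-0.0014 to 0.18) and *plk-2* (-0.13 to 0.20) between the proteins and *sun-1* in protein by gender (-0.32 to 0.021), and without replicate 2 *plk-2* was -0.016. Without control spermatogenic replicate 1 *him-8* was 0.41 for antibody by gender (range -1.17 to 0.41).

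Replicate numbers did not pair the samples: correlations of deviations between same-numbered libraries ran from -0.23 to 0.17, and in none of 9 pairs of groups did every pair exceed 0.1. The replicate block changed no call on a member. It gave 1264 genes for oogenic enrichment and 76 for antibody by gender, and FBF-1 over FBF-2 in oogenic germlines became 0.0043 for *zim-2*, -0.0025 for *zim-3* and -0.096 for *plk-2*. Counts were lowest for *pch-2* and *him-8*, with 7 to 23 and 18 to 49 in spermatogenic FBF libraries.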
